A study of Drosophila melanogaster with 4 samples.

Results

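Ac76E (CG7978) and Ac78C (CG10564) encode adenylyl cyclases, the membrane enzymes that make the second messenger cyclic AMP (cAMP) from ATP. They were selected by their current gene symbols, after their values on these arrays were known, and are 2 of 2406 genes that could be measured. A single clone, spotted as a pair of adjacent spots, represented each gene. The samples were 4 two-colour cDNA microarrays (NF-NF arrays, replicates 1 to 4) of heads of untreated, unmated adult males of the wild type strain Oregon-R, kept on normal food (NF) at 24 °C. On each array, antisense RNA from a pool of heads labelled with Cy5 was hybridized together with RNA from another pool labelled with Cy3, so that no genotype, treatment or drug separated the pools. Per the labels, flies spent 12 h in the treatment vessel before freezing, except that the Cy3 pool of replicate 1 had 6 h against 12 h for its Cy5 pool. In the study these arrays were the control for flies fed the convulsant pentylenetetrazole, whose arrays were not analysed here. Whole heads were pooled, so a value covers brain, eyes, fat body, muscle and glia together, and fewer cells of a type and less RNA per cell cannot be told apart.

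Adenylyl cyclases are switched on or off by heterotrimeric G proteins that report the state of hormone, transmitter and peptide receptors. The cAMP they make releases the catalytic subunits of protein kinase A from its regulatory subunits, and phosphodiesterases break it down. Flies have several such enzymes. The best known is that of rutabaga (rut), which olfactory memory needs. Ac78C is known for sugar taste and for the response of clock neurons to the peptide PDF, and Ac76E as a target gene of the insulin-regulated transcription factor FoxO.

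Values are log2 ratios of the Cy5 over the Cy3 signal, with the median of the array subtracted, so that 0 stands for the middle clone of the array and a negative value for a lower ratio than that clone had. The array medians before that step lay between 0.0005 and 0.141 on replicates 1 to 3, and at -0.697 on replicate 4. Replicate 4 also had values for 8.10% of the spots, against 28.8 to 30.5% on the other arrays, and neither cyclase had a value there. The results therefore rest on replicates 1 to 3. Over 3984 clones replicates 1 and 3 correlated with r = 0.714, while the r with replicate 2 was 0.430 for replicate 1 and 0.355 for replicate 3. The ratios run from Cy5 to Cy3 as the dyes are labelled, and a centred value below 0 means a ratio below the array median, not by itself a Cy5 signal below the Cy3 signal. The study's methods speak of dye-swapped slides, without naming them, so the direction is that of the labels alone.

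Ac76E was at -1.03 on replicate 1, -0.24 on replicate 2 and -1.53 on replicate 3. It was thus below the array median on 3 of 3 arrays, by far most on replicates 1 and 3. Its Cy5 signal was 0.489, 0.845 and 0.347 times the Cy3 signal on these arrays, relative to the array median, and the mean was -0.93 ± 0.65 (SD, n = 3). Replicate 1 was the array with unequal times in the vessel, and the part of these times in its value was not tested. The spread of all genes was unequal as well, with an SD of 0.332, 0.214 and 0.385 on replicates 1 to 3. In units of that SD, Ac76E stood at -3.11, -1.14 and -3.97, so its value on replicate 2 stayed the smallest after this scaling.

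Ac78C was at -0.024 on replicate 1, -0.169 on replicate 2 and -0.186 on replicate 3. All 3 values were slightly below 0, with 48.3%, 20.3% and 33.1% of the measured genes of the array lower. The Cy5 signals were 0.984, 0.889 and 0.879 times the Cy3 signal, relative to the array median. The mean was -0.13 ± 0.09 (SD, n = 3). As deposited, before the medians were subtracted, its value on replicate 1 was 0.117 and its mean -0.053 ± 0.150, so its sign on that array depended on the centring, while Ac76E was negative on each array both ways, at -0.86 ± 0.60 as deposited. Being below 0 on all of replicates 1 to 3 was common: 29% of 2281 genes with values on these arrays were. The values chose the genes, so they are given as a description, and no test was made of them.

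**Figure D1:**
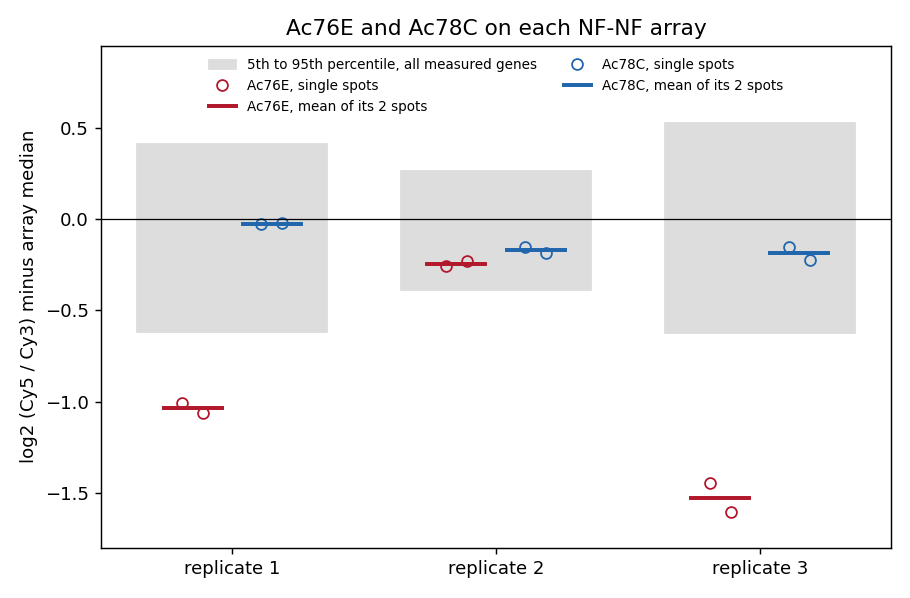
Centred log2 ratios (Cy5 over Cy3, array median subtracted) of Ac76E and Ac78C on replicates 1 to 3; circles are single spots, bars the mean of a gene's 2 spots, and grey boxes span the 5th to 95th percentile of all measured genes. Ac76E lies below the box on replicates 1 and 3, at -1.03 and -1.53, and inside it on replicate 2, and Ac78C lies inside it on each array.

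The single spots are given as deposited. Those of Ac76E read -0.864 and -0.920 on replicate 1, -0.256 and -0.230 on replicate 2, and -1.368 and -1.526 on replicate 3. Those of Ac78C read 0.115 and 0.119, -0.154 and -0.183, and -0.071 and -0.142. The spots of Ac76E differed by 0.056, 0.026 and 0.158 on replicates 1 to 3, and those of Ac78C by 0.004, 0.029 and 0.071, where the median over all pairs was 0.115, 0.102 and 0.124. The pair of Ac76E on replicate 3 was thus wider than the median pair of that array, and the other pairs were narrower. The range of Ac76E over the arrays was 1.28, wider than the difference between its spots on each array. Spots of 1 slide share the labelled RNA and the hybridization, so they measure the error of reading a spot and not that between pools.

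Set against each other on the same array, where the centring cancels out, Ac76E minus Ac78C was -1.01 on replicate 1, -0.0745 on replicate 2 and -1.34 on replicate 3 (log2 units). The mean difference was -0.81 ± 0.66 (SD, n = 3), negative on 3 of 3 arrays. The ratio of Ac78C was 2.01, 1.05 and 2.53 times that of Ac76E on these arrays, so that the genes lay far apart on replicates 1 and 3 and close together on replicate 2. These values are those that chose the pair, and no test was made of the difference. Of the measured genes of the array, 47.6% lay between them on replicate 1, 7.62% on replicate 2 and 32.9% on replicate 3.

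Among all measured genes, ranked from the lowest, Ac76E was at place 16 of 2406 on replicate 1, 303 of 2400 on replicate 2 and 5 of 2287 on replicate 3. Ac78C was at place 1163, 489 and 758 on the same arrays. Ac76E thus lay at the low end of replicates 1 and 3 and among the lowest 12.6% of replicate 2, and Ac78C stayed between 20.3% and 48.3% of the way up. By the mean over arrays, Ac76E was second lowest of the 2406 genes. Only Scp1, which encodes a calcium-binding protein, had a lower mean, at -1.77 ± 1.98 (SD, n = 3), and the aminopeptidase gene ApepP, at -0.91 ± 0.82, and CG7800, at -0.89 ± 0.52, came next. These 4 genes differed from each other in the mean by no more than the spread of Scp1 over the arrays. By the SD over arrays Ac76E was at place 34 from the highest, with 98.6% of the genes less variable, and 18.7% of the genes were less variable than Ac78C.

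**Figure D2:**
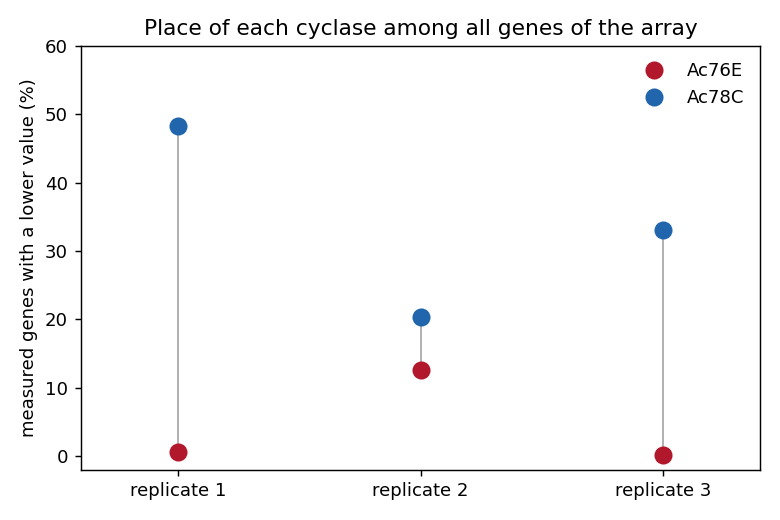
Share of the measured genes of an array (percent, vertical axis) that lay below Ac76E and below Ac78C on replicates 1 to 3; grey lines join the 2 genes of an array. For Ac76E the share is 0.623%, 12.6% and 0.175%, and for Ac78C it is 48.3%, 20.3% and 33.1%.

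The genes whose values were closest to those of Ac76E on replicates 1 to 3 were found by the root mean square difference of the centred log2 ratios, over 2280 other genes with values on these 3 arrays. CG7800 was closest, with a difference of 0.124 and values of -1.04, -0.32 and -1.33. Pect, which encodes an enzyme of phosphatidylethanolamine synthesis, followed at 0.272 with -0.64, -0.26 and -1.26. CG7443 was at 0.275, the cytochrome P450 gene Cyp4d21 at 0.377 and cyst at 0.383. All 5 were low on replicates 1 and 3, and CG7443 was above 0 on replicate 2, at 0.18. They were spotted 8306 or more table rows away from Ac76E, so none was a neighbour of it in the table. Ac78C was at place 817 in this order, with a difference of 0.970.

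For Ac78C the closest genes were rngo, which encodes a ubiquitin-binding protein, at 0.0061, and CG17059, at 0.021. The next were stmA, which encodes a plasma membrane protein of phosphoinositide signalling, at 0.027, Myd88, an adaptor of Toll receptors, at 0.031, and the mitochondrial fusion gene Opa1, at 0.036. All 5 were closer to Ac78C than CG7800 was to Ac76E. By root mean square, 20.7% of genes lay nearer 0 than Ac78C and 99.6% nearer than Ac76E. Genes are denser near 0, so the distances of the 2 cyclases cannot be compared as a measure of likeness. In the order for Ac78C, Ac76E came at place 2270 of 2280.

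The clones next to Ac76E in the table were low too. Within 12 clones on either side, 6 other clones had a value on replicate 1, and all 6 were below 0, between -1.06 and -0.17 with a median of -0.54. On replicate 2 the count was 6 of 6, with a median of -0.32, and 4 of these 6 were lower than Ac76E itself. On replicate 3 the count was 4 of 4, between -1.03 and -0.21, all of them above Ac76E. Around Ac78C the 9 measured clones lay between -0.157 and 0.176 on replicates 1 to 3. On replicate 1, 3 of these 9 were lower than Ac78C itself, and on replicates 2 and 3 the count was 0 of 9. When the median of 49 neighbouring spots with a value was subtracted in place of the array median, Ac76E was at -0.66, -0.12 and -1.22, with a mean of -0.67 ± 0.55 (SD, n = 3). Ac78C was then at -0.0095, -0.1135 and -0.243, with a mean of -0.12 ± 0.12. The difference between them had a mean of -0.55 ± 0.49 and kept its sign on 3 of 3 arrays. On replicate 2, however, the genes were at -0.1185 and -0.1135. That is closer together than the median pair of duplicate spots on that array, which differed by 0.102, so the sign there carries no weight. The part of the table position in the values of Ac76E was not tested further.

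**Figure D3:**
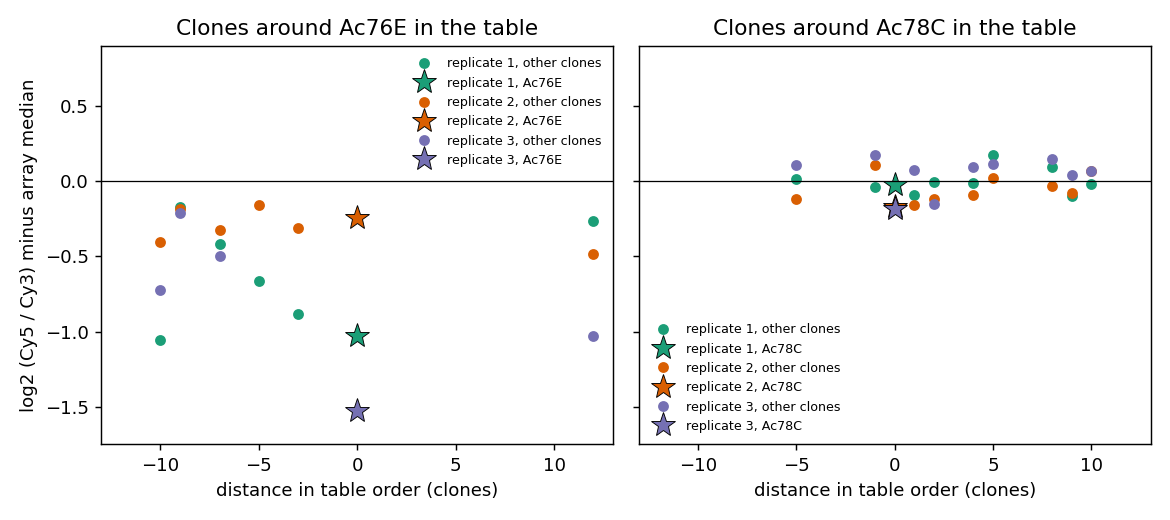
Centred log2 ratios of the clones within 12 clones of Ac76E (left) and of Ac78C (right) in table order, with a colour for each of replicates 1 to 3; stars mark the cyclase and dots the other clones with a value. Every other clone around Ac76E is below 0, with the lowest at -1.06, while those around Ac78C scatter about 0.

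Genes that overlap the cyclases in the genome were looked up by name in the RefSeq gene table. The 6 genes listed as overlapping Ac76E had no value here. The table gave no gene overlapping Ac78C.

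The rest of the pathway was followed in 7 lists with 96 genes. Of these, 47 were named on the array and 16 had values on at least 3 arrays. The list of 11 other adenylyl cyclases had no measured member, since Ac13E, ACXC and ACXD were spotted but had no value, and rut was not among the named spots. The 12 guanylyl cyclases, which make the related messenger cGMP, likewise had no measured member, with 7 spotted. Of the cyclases listed, Ac76E and Ac78C alone had values on at least 3 arrays. The list of genes of transcription downstream of cAMP had no measured member either, with 2 of 6 spotted.

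In limma's test of each gene's mean against 0, with Benjamini-Hochberg adjustment over all 2406 genes, 0 of the 16 pathway genes passed at 0.05, and the background was the same, with 0 genes (0%) called. At an unadjusted p under 0.05 it was 5 of the 16 pathway genes, that is 31.2%, against 30.4% of all genes, so the share was near the background. Of the 16, 3 were lower, against 17.1% of all genes, and 2 higher, against 13.3%. A rebuilt one-class Significance Analysis of Microarrays (SAM) at a false discovery rate of 5% called 1 of the 16 and 7.86% of all genes. The study's own SAM of its NF-NF control arrays reported no differentially expressed gene at a rate anywhere near 5%, so these calls differ from the published result. The median of the 16 means was -0.06, against -0.007 over all genes, and 10 of the 16 were below 0, against 51.5% of all genes. None of them had a lower mean than Ac76E, and 1, 5-HT7, had a larger SD over the arrays. Ac76E was chosen with its values known, so this comparison says nothing about the pathway genes.

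Of the G proteins, the stimulatory subunit gene Galphas, whose product activates adenylyl cyclases, was at -0.77, -0.40 and -0.60 on replicates 1 to 3. It was low on each of them, with a mean of -0.59 ± 0.19 (SD, n = 3) and an adjusted p of 0.0663 in limma. Galphas was the pathway gene that the rebuilt SAM called. Without replicate 4, on which it had no value, its mean stayed at -0.59 and its limma adjusted p was 0.0185. Its own values changed there only by the centring, so the lower adjusted p came from the fit over all genes. In that fit 2 of 13 pathway genes with values passed, Galphas and Pka-R1, both lower, against 9.82% of 2281 genes in either direction and 8.29% lower. In every other setting of the gene-level fit 0 pathway genes passed, also with neighbouring spots subtracted or array signs turned. The background was near 0 too. Those settings called 0 genes over all, except 2 of 2406 with neighbouring spots subtracted and 1 of 436 without replicate 2. With all 4 arrays required, or without replicate 1, 2 or 3, only 6 to 8 pathway genes were tested. Galphas, with values on replicates 1 to 3 alone, was not among them. The mean of Galphas after subtraction of neighbouring spots was -0.41 ± 0.13. The other 4 measured genes of that list lay near 0, between -0.17 ± 0.09 (SD, n = 3) for cta, another alpha subunit gene, and 0.03 ± 0.18 (n = 3) for Gbeta5. Galphaq, the alpha subunit of phototransduction, was at -0.06 ± 0.07 (n = 4), and loco, which shortens the active state of alpha subunits, at -0.07 ± 0.13 (n = 3).

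Downstream and around cAMP, the phosphodiesterase gene Pde8 was at -1.38 on replicate 1, -0.83 on replicate 2 and -0.12 on replicate 4, with no value on replicate 3. Its mean of -0.78 ± 0.63 (SD, n = 3) was the lowest of the pathway genes after Ac76E, with an adjusted p of 0.0974 in limma. On replicate 2 it was lower than Ac76E, which was at -0.24 there. Pka-R1, a regulatory subunit of protein kinase A, was below 0 on 4 of 4 arrays, at -0.40, -0.27, -0.55 and -0.04. Its mean was -0.32 ± 0.21 (SD, n = 4), with a limma adjusted p of 0.100, and without replicate 4 it was -0.41 with an adjusted p of 0.0375.

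Receptors that act on cAMP were divided, with 4 of 9 below 0 and 5 above. AkhR, the receptor of the adipokinetic hormone in fat body, was lowest at -0.24 ± 0.23 (SD, n = 3), followed by the octopamine receptor gene Octbeta2R at -0.22 ± 0.16 (n = 3). Dh31-R, a receptor of a diuretic hormone that raises cAMP, was at 0.38, 0.18 and 0.39 on replicates 1 to 3, all above 0. The highest mean was that of the serotonin receptor 5-HT7, at 0.50 ± 0.66 (SD, n = 4), which rested on a value of 1.49 on replicate 4, against 0.065 to 0.255 on the other arrays. Pdfr, the receptor of the clock peptide PDF, which has been linked with Ac78C, was at 0.14, -0.04 and 0.24 on replicates 1 to 3. Its mean was 0.11 ± 0.14 (SD, n = 3). No receptor passed the test. Ac76E, which was chosen with its values known and was not tested, lay farther from 0 than each of them.

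**Figure D4:**
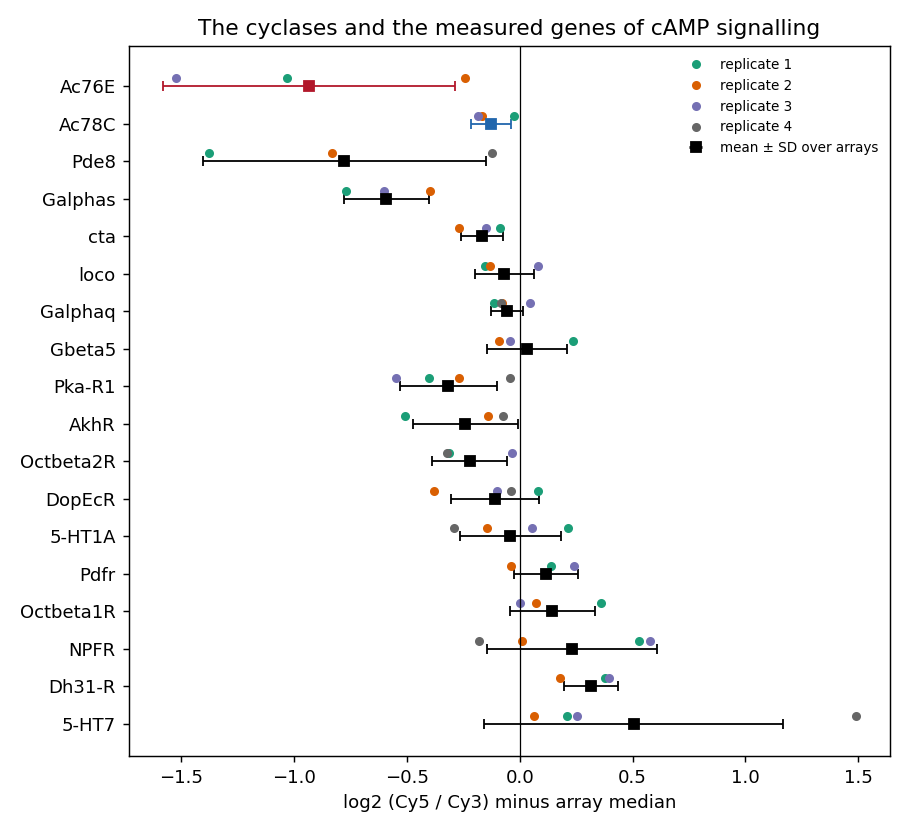
Centred log2 ratios of Ac76E, Ac78C and the 16 measured genes of cAMP signalling; coloured dots are arrays, squares and bars the mean ± SD over the 3 or 4 arrays with a value. Ac76E has the lowest mean, at -0.93, and Pde8 and Galphas follow at -0.78 and -0.59, while most receptors lie near 0.

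Markers of the cell types in a head were read on the same arrays, as ratios that cannot show a level. Means over the measured markers are given for replicates 1, 2 and 3 in this order. For glia they were -0.50, -0.0003 and -0.32 (3 of 7 listed genes measured). For neurons they were -0.27, -0.19 and -0.12 (5 of 8), and for muscle -0.27, 0.13 and -0.33 (3 of 7). On replicate 3 Rab3 and Mlc1 had no value, so the neuron mean there rested on 4 genes and the muscle mean on 2. Among the neuron markers, nSyb was above 0 on each of these arrays, and the others with a value were below 0. For fat body they were 0.54, 0.22 and 0.43 (4 of 7), for photoreceptors 0.05, 0.29 and 0.06 (2 of 9), and for gut, with Mal-A2 alone of 8, 0.53, 0.10 and 0.78. The means of glia and muscle were lower on replicates 1 and 3 than on replicate 2, as Ac76E was, and those of fat body and gut were higher there. The fat body markers were divided, since Yp2 and Yp3 were higher on replicates 1 and 3 than on replicate 2, and Lsp2 and apolpp were lower. The defining markers elav, repo and ninaE were not among the named spots, and the female yolk protein genes Yp2 and Yp3 were at 0.52 ± 0.32 (SD, n = 3) and 1.31 ± 0.72 (n = 4) in these male heads. The part of cell composition in the values of Ac76E was not tested.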

How the data were processed

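The authors read the spots in GenePix Pro 6.0, and ratio-based normalization was made per slide in Acuity 4.0. Spots were kept with under 3% saturated pixels, an R2 between the channels of at least 0.6 and a signal-to-noise ratio of at least 3. Each deposited value is the log2 ratio of the Cy5 over the Cy3 signal of a spot. Scanner intensities were not used, and the 4 arrays limit the precision. The labels describe separate pools of heads, and p-values measure the spread between these arrays.

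Adjacent spots were averaged into 13824 clones, of which 4208 had values on at least 3 arrays. Each array's median over these was subtracted. Clones of a gene were averaged, giving 2406 genes. Names came from the platform annotation, updated by Entrez identifier through the RefSeq table of Release 6 for 97.9% of 15218 probes. Of these probes, 15116 had 1 gene and 102 several, which were not named. Genes were tested against 0 with limma (3.58.1, R 4.3.3), two-sided. The code was also run on simulated data, whose noise was independent between arrays and of equal size on each. The measured arrays had unequal spreads, so that run does not show how the test behaves on them. SAM, named in the study's methods, was rebuilt over 16 sign patterns on the values centred here. It is not the study's own run, which reported no differentially expressed gene on the NF-NF arrays at a false discovery rate near 5%. The members, lists and tests were chosen with earlier results of these data known. The genes named were the cyclases, the lowest and highest measured gene of each list, Galphas, Pdfr and, where measured, rut, dnc and Pka-C1, and the 5 closest genes in pattern. Other genes were named after their values were seen. Alternatives covered the centring, the spots, table position, dye orientation and each array left out.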

Additional observations from a re-analysis of the deposited data

Results flagged for a closer look

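The search for a single array that stands far from the rest needs 4 values, and neither cyclase had them. The search covered only the 7 pathway genes chosen by the naming rule above, so Galphaq was left out. Of these, 2 had values on all 4 arrays, and 1 of them was flagged. The serotonin receptor 5-HT7 was at 1.49 on replicate 4 after centring, far from the other 3 values in relation to their range. This gene entered the search as the highest mean of its list, and that mean rested on the same value, being 0.17 without replicate 4. A chance rate for such flags therefore cannot be applied to it.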

How the results depend on the processing

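The means of Ac76E and of Ac76E minus Ac78C kept their sign and moved by less than 1 SD under every alternative except the turning of array signs for possible dye swaps. With replicates 2 and 3 turned, the mean was 0.25 for Ac76E, 0.11 for Ac78C and 0.14 for the difference. With replicates 3 and 4 turned, it was 0.083, -0.0024 and 0.086. With 2 and 4 turned, that of Ac78C was -0.013. With each array left out in turn, Ac76E lay between -1.28 and -0.64, Ac78C between -0.18 and -0.096, and the difference between -1.17 and -0.54. Without replicate 2 the difference was -1.17, and without replicate 3 it was -0.54. The number of genes called by limma, 0 of 2406, was 2 after subtraction of neighbouring spots, 189 with SAM (36 higher and 153 lower), and between 0 and 224 with an array left out, 224 without replicate 4 (35 higher and 189 lower). The cause was not tested. Direction rests on the labels' dyes, and neither gene had a value on replicate 4. No paired analysis was possible because the arrays form 1 group.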
